A study of Mus musculus with 38 samples.

Results

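A transgene for the miR-17~92 microRNA cluster was read here for what it changed in the response of naive CD4+ T cells to stimulation. Of the 38 libraries of the series, 16 entered this comparison, 4 in each of 4 groups. Wild-type mice gave naive cells and cells stimulated for 24 h. The other 8 libraries came, in the same states, from mice in which Cre recombinase, driven by Cd4, removes a stop cassette in Rosa26 and switches on a CAG-driven miR-17~92 transgene (labelled T1792tg/tg, here T1792tg). The members were chosen by their labels, and no measured value entered the choice. The quantity tested for every gene was the interaction, that is the log2 change from naive to 24 h in T1792tg cells minus the same change in wild-type cells. A value above 0 means that a transcript rose more, or fell less, in T1792tg cells.

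Naive CD4+ T cells had been enriched from pooled lymph nodes and spleen, each preparation from a single mouse of either sex. Stimulation lasted 24 h. It used plate-bound antibodies to CD3 (0.5 µg/ml), a part of the T cell receptor complex, and to CD28 (0.2 µg/ml), a costimulatory receptor, and IL-2 was added at 50 U/ml. Naive cells were not cultured, so the response holds stimulation, culture and IL-2 together. Cd4-driven Cre acts from thymic development on, so the transgene was present well before stimulation. None of the 4 groups compared here carried Cre without the transgene. An effect of Cre, of the mouse line or of the transgene cannot be told apart in these groups. The age of the mice is not given in the sources used here.

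The miR-17~92 cluster is 1 primary transcript that is cut into several mature microRNAs, which pair by their seed bases with sites in the 3' untranslated regions of messenger RNAs and lower their level or translation. In lymphocytes the cluster promotes growth, proliferation and survival, and known targets include Bcl2l11, a death factor. It has been placed downstream of CD28 costimulation.

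The mature microRNAs of the cluster fall into 4 seed families. They are printed because the last comparison below sorts genes by matches to these seeds. Sequences are from RefSeq (GRCm38.p6), 5′ to 3′, with the seed (bases 2 to 8) in capitals.
mmu-miR-17-5p: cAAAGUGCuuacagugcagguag
mmu-miR-20a-5p: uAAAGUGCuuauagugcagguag
mmu-miR-18a-5p: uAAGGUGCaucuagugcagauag
mmu-miR-19a-3p: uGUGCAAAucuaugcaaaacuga
mmu-miR-19b-3p: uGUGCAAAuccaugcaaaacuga
mmu-miR-92a-3p: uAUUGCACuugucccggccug
The miR-17-5p and miR-20a-5p seeds are identical, as are those of miR-19a-3p and miR-19b-3p, and miR-18a-5p and miR-92a-3p each have a seed of their own.

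The cluster's own transcripts were higher in T1792tg cells in both states and fell on stimulation in both genotypes. Levels are CPM with TMM-scaled library sizes, given as mean ± SD over 4 libraries. Mir17hg, the host transcript (Entrez gene 75957, chr14:115044390-115046728, GRCm38.p6), stood naive and at 24 h at 51.6 ± 7.25 and 20.7 ± 2.44 CPM in wild-type and 96.6 ± 10.1 and 34.7 ± 4.18 CPM in T1792tg cells. Its interaction was -0.16 ± 0.18 (log2 ± SE, adjusted p = 0.61; all adjusted p values here are Benjamini-Hochberg values from edgeR's quasi-likelihood test). In naive cells Mir17 stood at 0.441, 0.206, 0.335 and 0.356 CPM in the wild-type and at 5.78, 6.28, 6.29 and 7.85 CPM in the T1792tg libraries. At 24 h it stood at 0.134, 0.113, 0.156 and 0.12 CPM in wild-type and 0.665, 0.31, 0.655 and 0.866 CPM in T1792tg libraries. Mir17 is an annotated precursor within the cluster, and every T1792tg library lay above every wild-type library in the same state. The precursor fell further in T1792tg cells, with an interaction of -2.08 ± 0.63, adjusted p = 0.023, and without wild-type 24 h replicate 3 this call was lost at -1.98. Its wild-type levels, at most 0.441 CPM, rest on few counts, which limits what the wild-type fall can show. The neighbouring precursors Mir18 and Mir20a had interactions of -0.71 ± 0.77, adjusted p = 0.58 and -1.15 ± 0.84, adjusted p = 0.38, and Mir18 turned to 0.58 without wild-type 24 h replicate 1. Gt(ROSA)26Sor, which is read from the Rosa26 locus, had -1.68 ± 0.88, adjusted p = 0.2. These are counts of polyA RNA over short annotated loci next to the host gene, and they do not give the level of the mature microRNAs.

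Total counts per library ran from 20137649 to 26909473 over the 16 libraries. Sex, read from Xist and a Y-linked gene, was female in 3 of 4 wild-type and in 1 of 4 T1792tg mice in each state, so sex moved with genotype. The T cell markers summed to 5740 to 6810 CPM in naive wild-type and 6870 to 7160 CPM in naive T1792tg libraries, all 10 of 10 markers being tested. By their medians the sums of several other marker lists were higher, and that of red cells lower, in the naive T1792tg libraries. The 12 tested of 14 B cell markers summed to 235 to 470 CPM in naive wild-type and 422 to 674 CPM in naive T1792tg libraries. The 14 myeloid markers summed to 326 to 442 and 505 to 648 CPM, the 10 NK and CD8 markers to 102 to 107 and 110 to 188 CPM, the 13 memory T cell markers to 634 to 700 and 825 to 947 CPM, and the 11 regulatory T cell markers to 443 to 467 and 518 to 669 CPM. The 4 red cell markers summed to 314 to 953 CPM in naive wild-type and 95.8 to 486 CPM in naive T1792tg libraries. At 24 h the B cell sums were 31.8 to 82.6 and 49.1 to 91.9 CPM, the myeloid sums 50.6 to 77.7 and 65.1 to 83.2 CPM, and the NK and CD8 sums 29.6 to 41.5 and 36.5 to 57.6 CPM. The memory T cell sums, which include Cd44, were 614 to 710 and 999 to 1070 CPM at 24 h. Those of the regulatory T cell markers were 1120 to 1170 and 1350 to 1410 CPM. Neither of these pairs of ranges overlapped, and their part in the 24 h results was not tested. None of the B cell, myeloid, NK and CD8 or red cell markers had a called interaction, and at most 3 of any such list had one in an alternative, but the naive values move with every result below that rests on the naive libraries, and their part in it was not tested. In bulk RNA, fewer cells of a type and less RNA per cell cannot be told apart.

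Stimulation moved most of the transcriptome in both genotypes, and largely alike. Of 13650 tested genes, 11627 were called in the wild-type response (85.2%) and 11611 in the T1792tg response (85.1%), a call being an adjusted p below 0.05. Rises made up 41.3% of tested genes and falls 43.9% in wild-type cells, and 41% and 44.1% in T1792tg cells. Both responses called 10700 genes, and 10625 of these went the same way. Across genes the 2 responses had a Pearson r of 0.959, a description over genes, which are not independent replicates. The interaction was called for 2185 genes (16%), 1173 above 0 (8.59%) and 1012 below 0 (7.41%). Most differences were modest: the median absolute log2 interaction of called genes was 0.505, and 241 of them exceeded 1. The median over all tested genes was -0.02. With terms for sex and for sex by state in the fit, 1474 genes were called.

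An interaction can rest on a difference between the genotypes in naive cells, in stimulated cells or in both. Naive T1792tg and wild-type cells differed in 3158 genes (23.1%), 1439 higher (10.5%) and 1719 lower (12.6%), and the 24 h cells in 1713 genes (12.5%), 833 higher (6.1%) and 880 lower (6.45%). The 24 h count fell to 1092 without T1792tg 24 h replicate 3, to 962 without T1792tg 24 h replicate 4 and to 1092 without wild-type 24 h replicate 1. Only 630 genes were called in both states. Of these, 468 kept their direction, while 78 were higher naive and lower at 24 h and 84 were lower naive and higher at 24 h. The plot of one difference against the other shows where the called interactions lie.

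**Figure D1:**
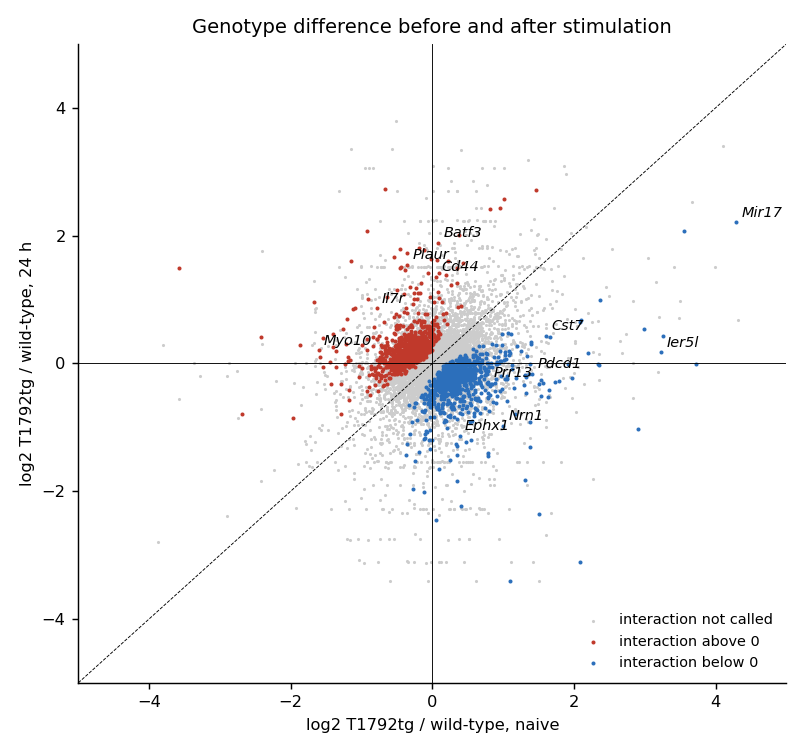
Log2 difference between T1792tg and wild-type cells in naive libraries (x axis) and 24 h libraries (y axis), 1 point per tested gene, with 4 libraries per group. Genes with a called interaction above 0 (red, 1173) lie above the dashed line of equal differences and those below 0 (blue, 1012) under it; 4 of 13650 genes lie outside the axes.

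To ask which side of the response was affected without using the same libraries, genes were sorted by their response in mice lacking the cluster in T cells (T1792del, Cd4-driven Cre with a floxed cluster). The 5654 genes that rose there on stimulation (41.4%) had a median interaction of -0.07, and 7.36% were called above 0 and 10.1% below. The 5967 genes that fell (43.7%) had a median of 0.04, with 10.5% above 0 and 5.55% below. The 2029 other genes had a median of -0.02, with 6.51% and 5.42%. Both medians lay toward a smaller change on stimulation in T1792tg cells, and they were small beside the spread between genes.

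A set of surface and secreted molecules was alike in naive cells and higher in T1792tg cells after stimulation. Cd44 was 37.2, 36.1, 41.5 and 35.4 CPM in the naive wild-type and 34.8, 41.2, 37.7 and 41.5 CPM in the naive T1792tg libraries. After stimulation it was 85.2, 102, 124 and 100.2 CPM in the wild-type and 255, 266, 267 and 269 CPM in the T1792tg libraries. CD44, an adhesion receptor that T cells raise on activation, did not overlap between the genotypes at 24 h and overlapped before. Its rise was 1.45 ± 0.12 in wild-type and 2.77 ± 0.13 in T1792tg cells on the log2 scale, an interaction of 1.31 ± 0.17, adjusted p = 5.8e-06 (chr2:102811141-102901669). Wild-type libraries held Plaur at 40.3, 58.5, 39.3 and 29.1 CPM naive and at 5.83, 7.64, 5.93 and 5.57 CPM after 24 h. T1792tg libraries held it at 33.6, 38.7, 33.2 and 24.9 CPM naive and at 17.8, 20.6, 16.7 and 17.8 CPM after 24 h. Plaur, the urokinase receptor, fell in both genotypes and fell less in T1792tg cells, and its 24 h groups did not overlap. The interaction of Plaur was 1.90 ± 0.25, adjusted p = 5.4e-06. Gprin3, a neurite outgrowth regulator, went from 5.79 ± 1.55 to 1.35 ± 0.365 CPM in wild-type cells and from 5.33 ± 1.1 to 4.66 ± 1.66 CPM in T1792tg cells (1.89 ± 0.38, adjusted p = 0.00083).

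Among 23 tested of 26 listed cytokines, 15 had an interaction above 0, of which 5 were called, and no member was called below 0. Without T1792tg naive replicate 4, with only the compared groups or with DESeq2, 1 cytokine was called below 0. The list median was 0.19 against -0.02 for all genes, and over all tested genes 8.59% were called above and 7.41% below 0, the shares against which the counts of called members in this and the next lists are to be read. Levels of Lta in wild-type cells were 17.1, 17.5, 17.4 and 17 CPM before and 88.3, 113, 102 and 106 CPM after stimulation. Those in T1792tg cells were 19, 17, 23.9 and 15.8 CPM before and 189, 179.5, 192 and 238 CPM after. Lymphotoxin alpha, a TNF family cytokine, was higher in every T1792tg than in every wild-type library at 24 h, and the naive groups overlapped (0.83 ± 0.18, adjusted p = 0.0015). Lif, a cytokine of the IL-6 family, rose from 9.26 to 75.9 ± 10.8 CPM and from 7.05 to 132 ± 9.75 CPM (1.19 ± 0.22, adjusted p = 0.00036). Ccl3, a chemokine, rose from 6.22 to 49.8 ± 9.26 CPM and from 5.43 to 107 ± 25.6 CPM (1.31 ± 0.39, adjusted p = 0.018). The Ccl3 call was lost without wild-type naive replicate 2 (0.97) and without T1792tg 24 h replicate 4 (1.13), and without either library 3 cytokines were called. Tnfsf11, the ligand RANKL, differed in the naive state instead: it stood at 22.6 ± 9.1 CPM in naive wild-type and 7.54 ± 2.72 CPM in naive T1792tg cells and reached 149.8 ± 15.8 and 161 ± 30.3 CPM (1.70 ± 0.31, adjusted p = 3e-04). Ifng, the defining T helper 1 cytokine, was the other called member.

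Il2 and its receptor chain Il2ra rose strongly in both genotypes, with no called interaction. Il2 went from 0.221 ± 0.107 to 155 ± 23.7 CPM in wild-type and from 0.263 ± 0.134 to 215 ± 42.5 CPM in T1792tg cells (0.28 ± 0.76, adjusted p = 0.85); the sign of this estimate turned without T1792tg naive replicate 4 (-0.03) and without wild-type naive replicate 3 (-0.11). Il2ra went from 15.4 ± 1.38 to 641 ± 14.5 CPM and from 19.8 ± 3.44 to 914 ± 13.8 CPM (0.15 ± 0.14, adjusted p = 0.52). Il2ra was higher in T1792tg cells in both states, by 0.36 ± 0.11 naive and 0.51 ± 0.10 at 24 h, which leaves the response itself without a called difference. In the list of IL-2 and STAT5 genes, 4 of 17 were called above 0 and 1 below, with a median of 0.15 over all 17. Stat5a, which transmits the IL-2 signal, stood at 195 ± 16.5 naive and 199.7 ± 4.73 CPM at 24 h in wild-type and rose from 153 ± 17.8 to 271 ± 25.5 CPM in T1792tg cells (0.80 ± 0.14, adjusted p = 0.00016). The kinases Pim1 and Pim2 went opposite ways, at 0.97 ± 0.14 and -0.60 ± 0.11.

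T helper 1 and effector genes had 7 of 20 members called above 0 and 1 below, and 14 of the 20 lay above 0, with a median of 0.39. The called count above 0 was 4 without T1792tg 24 h replicate 3 and 3 without T1792tg 24 h replicate 4. Much of the difference was already present before stimulation. In naive cells 11 of the 20 were called higher in T1792tg libraries and 2 lower (median 0.67), against 10.5% and 12.6% of all tested genes. At 24 h 14 were called higher and none lower (median 0.69), against 6.1% and 6.45%. The 2 chains of the IL-12 receptor, which drives T helper 1 differentiation, diverged. For Il12rb2, the naive libraries gave 2.5, 1.81, 2.47 and 2.29 CPM in wild-type and 2.59, 2.64, 3.25 and 3.71 CPM in T1792tg cells. The 24 h libraries gave 15.7, 27.2, 22.3 and 14.7 CPM and 50.0, 66.6, 53.2 and 68.3 CPM. Il12rb2, the signalling chain, was higher in every T1792tg than in every wild-type library in both states, by a narrow margin in naive cells, where the difference was not called (adjusted p = 0.23), and widely at 24 h (interaction 1.14 ± 0.32, adjusted p = 0.014). Il12rb1, the shared chain, was already higher in naive T1792tg cells and rose by less, from 10.4 ± 1.57 to 230.0 ± 9.75 CPM against 3.97 ± 0.358 to 185 ± 15.3 CPM in wild-type cells (-1.08 ± 0.23, adjusted p = 0.0015).

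**Figure D2:**
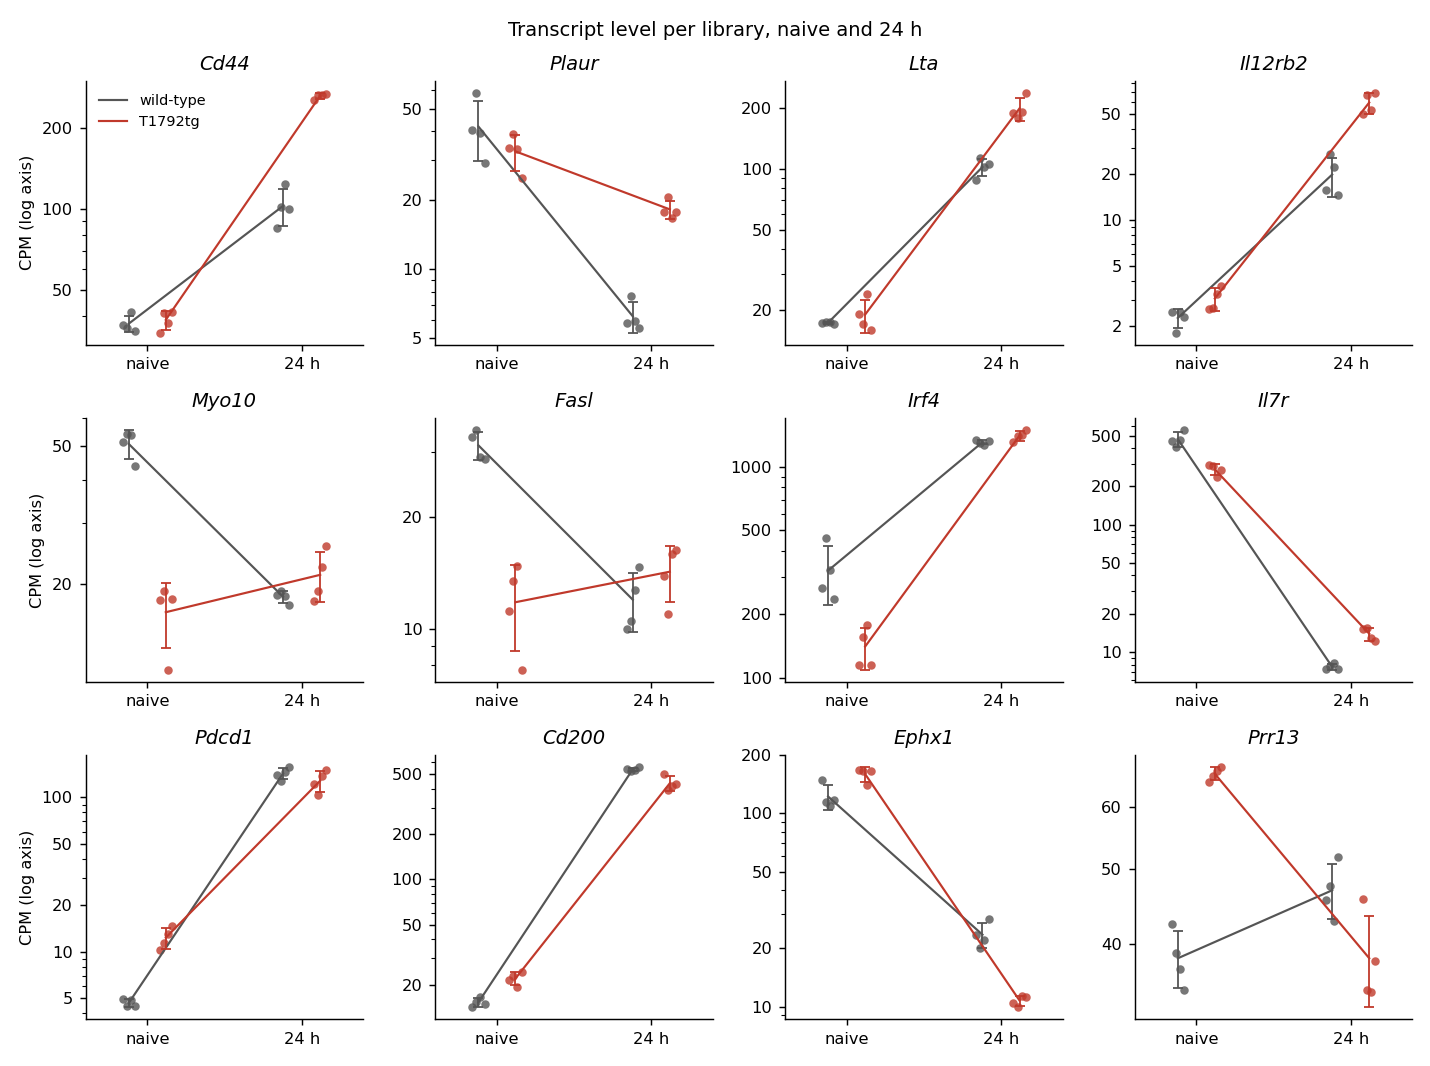
Level of 12 genes in each of 16 libraries, in CPM on log axes, for naive and 24 h cells of wild-type (grey) and T1792tg mice (red). Points are libraries, lines join group means and bars show the SD over 4 libraries. Cd44, Lta and Il12rb2 separate between genotypes at 24 h, Myo10, Fasl and Irf4 in naive cells, and Prr13 moves in opposite directions.

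A second set was lower in naive T1792tg cells and reached wild-type levels after stimulation. In naive cells Myo10 stood at 51.3, 54, 53.7 and 43.6 CPM in the wild-type and at 18, 19.1, 11.4 and 18.1 CPM in the T1792tg libraries. At 24 h it stood at 18.6, 19.1, 18.5 and 17.4 CPM in wild-type and 17.9, 19.2, 22.5 and 25.7 CPM in T1792tg libraries. Myo10, an unconventional myosin of filopodia (chr15:25622550-25813673), was separated in the naive libraries and overlapped at 24 h. It fell by 1.46 ± 0.13 on the log2 scale in wild-type cells and rose by 0.36 ± 0.13 in T1792tg cells (1.82 ± 0.18, adjusted p = 8.1e-08 for the interaction). Fasl was 32.9, 34.4, 29.1 and 28.8 CPM in the naive wild-type and 11.2, 13.5, 14.8 and 7.77 CPM in the naive T1792tg libraries. After stimulation it was 10.0, 10.5, 12.8 and 14.7 CPM in the wild-type and 13.9, 11, 16 and 16.3 CPM in the T1792tg libraries. Fasl, the ligand of the death receptor Fas, had the same layout (1.65 ± 0.20, adjusted p = 3.1e-06). Irf4, a transcription factor that scales with T cell receptor signal, rose from 323 ± 100.4 to 1309.5 ± 32 CPM in wild-type and from 141 ± 31.6 to 1407 ± 76.2 CPM in T1792tg cells (1.30 ± 0.22, adjusted p = 0.00012). Ddr1, a collagen receptor, stood at 14.8 ± 1.44 and 17.1 ± 1.02 CPM in wild-type cells and rose from 6.28 ± 0.87 to 17.1 ± 1.99 CPM in T1792tg cells (1.24 ± 0.16, adjusted p = 4.4e-06). P2ry14, a receptor for UDP-sugars, fell from 10.9 ± 2.31 to 0.133 ± 0.0687 CPM and from 3.42 ± 0.889 to 0.262 ± 0.206 CPM, and its 24 h levels are low in both (2.63 ± 0.62, adjusted p = 0.0039). Of the memory T cell markers, which include Cd44 and Fasl, 3 of 13 were called above 0 and none below, and 7 of the 13 lay above 0. In naive cells Fasl went against this list. There 9 of the 13 were called higher in T1792tg libraries and 1, Fasl, lower (median 0.59), against 10.5% and 12.6% of all tested genes. At 24 h 8 were called higher and none lower (median 0.59), against 6.1% and 6.45%.

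Several genes of the naive and quiescent state fell less on stimulation in T1792tg cells. Of 22 such genes, 17 had an interaction above 0, 10 of them called, and 1 was called below (Btg2, an antiproliferative factor), with a median of 0.31. The Btg2 call was lost without T1792tg naive 3, T1792tg 24 h 2 or wild-type 24 h 1 or 4. In naive cells 13 of the 22 were called lower in T1792tg libraries and none higher, against 12.6% and 10.5% of all tested genes. Wild-type libraries held Il7r at 457, 408, 462 and 553 CPM naive and at 7.39, 7.79, 8.19 and 7.33 CPM after 24 h. T1792tg libraries held it at 292, 289.7, 237 and 269.6 CPM naive and at 15.2, 15.5, 12.9 and 12.2 CPM after 24 h. Il7r, the IL-7 receptor chain that keeps naive T cells alive, was lower in all naive T1792tg libraries and higher in all T1792tg libraries at 24 h (1.65 ± 0.26, adjusted p = 5.9e-05). The survival factor Bcl2 fell from 177 ± 11.5 to 65.5 ± 4.19 CPM and from 113 ± 10.1 to 62.8 ± 3.1 CPM (0.59 ± 0.12, adjusted p = 0.00064). Foxo1, which drives Il7r and other naive genes, fell from 576 ± 38.1 to 81.5 ± 4.28 CPM and from 458 ± 86.6 to 100.05 ± 3.38 CPM (0.62 ± 0.13, adjusted p = 0.0016). Klf3, a Krüppel-like factor, had 0.54 ± 0.13, adjusted p = 0.0037.

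Some inhibitory receptors and genes of T follicular helper cells, the helpers of B cells, showed the reverse layout, higher in naive T1792tg cells with an interaction below 0. Of 15 tested of 16 follicular helper genes, 10 had an interaction below 0, with 4 called (Pdcd1, Cd200, Pou2af1 and Tox2), and 1 was called above (Icos), with a median of -0.20. The Icos call was lost without T1792tg naive 1 or 4, T1792tg 24 h 1, 3 or 4, wild-type naive 2 or wild-type 24 h 2, with terms for sex, with only the compared groups and with the block within genotype. The B cell marker sums that were higher in naive T1792tg libraries bear on Pou2af1 and Cd200, which B cells also express, and their part was not tested. Levels of Pdcd1 in wild-type cells were 4.9, 4.41, 4.85 and 4.42 CPM before and 140.4, 129, 147 and 157 CPM after stimulation. Those in T1792tg cells were 10.3, 11.4, 13 and 14.7 CPM before and 122, 103, 139 and 149.9 CPM after. PD-1, the product of Pdcd1, is an inhibitory receptor that activated T cells raise, and its groups were separated in naive cells and overlapped at 24 h (-1.57 ± 0.23, adjusted p = 2.5e-05). For Cd200, the naive libraries gave 14.2, 15.3, 16.5 and 14.9 CPM in wild-type and 21.4, 22.9, 19.2 and 24.3 CPM in T1792tg cells. The 24 h libraries gave 541, 524, 537 and 556 CPM and 504, 395, 415 and 428 CPM. Cd200, a ligand that restrains myeloid cells, was separated in both states and in opposite directions (-0.84 ± 0.13, adjusted p = 8.1e-05). Lag3, another inhibitory receptor, rose from 4.87 ± 0.806 to 97.4 ± 11.7 CPM and from 9.5 ± 2.23 to 84.5 ± 8.58 CPM (-1.18 ± 0.20, adjusted p = 0.00012). Pou2af1, a coactivator of octamer-binding factors, rose from 32.3 ± 4.64 to 64.9 ± 9.86 CPM in wild-type cells and stood at 55.8 ± 10.1 and 44.5 ± 5.97 CPM in T1792tg cells (-1.34 ± 0.23, adjusted p = 0.00017). Tox2 did not exceed 2.02 ± 0.535 CPM as a group mean and lost its call in 9 of the 22 alternatives in which it was tested. In the list of activation receptors as a whole, 6 of 21 were called above 0 and 3 below, with a median of 0.15, and 3 were called above 0 without wild-type 24 h replicate 2 and with terms for sex. The 6 were Tigit, Cd28, Cd44, Cd5, Tfrc and Icos, and the 3 were Lag3, Cd200 and Pdcd1. Tigit is an inhibitory receptor too, so such receptors were called on both sides of 0.

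Several of the largest interactions below 0 were transcripts that wild-type cells raised and T1792tg cells raised less. Nrn1, neuritin, rose from 2.21 ± 0.247 to 83.5 ± 11.1 CPM and from 4.36 ± 0.833 to 42.4 ± 12.7 CPM (-1.97 ± 0.25, adjusted p = 4e-06). Angptl2, a secreted angiopoietin-like protein, rose from 1.39 ± 0.39 to 18.5 ± 4.12 CPM and from 2.41 ± 0.394 to 7.0 ± 0.868 CPM (-2.18 ± 0.34, adjusted p = 5.2e-05). Tnfsf4, the costimulatory ligand OX40L, reached the same level at 24 h, 11.5 ± 0.96 and 11.3 ± 1.58 CPM, from 0.176 ± 0.133 and 0.957 ± 0.311 CPM (-2.38 ± 0.38, adjusted p = 7.3e-05). Cst7, a cystatin of effector cells, was higher in T1792tg cells in both states, at 8.15 ± 1.2 against 24.6 ± 3.26 CPM naive and 77.1 ± 2.8 against 104 ± 2.81 CPM at 24 h, and its relative rise was smaller (-1.17 ± 0.15, adjusted p = 3.3e-06). Ier5l, an immediate early response gene, was 8.21 ± 2.5 CPM in naive T1792tg cells and near 1 CPM in the other groups (-3.06 ± 0.44, adjusted p = 2.1e-05). In the apoptosis list, 2 of 18 were called above 0 (Bcl2 and Fasl) and 1 below (Bid, a call lost in 11 of 24 alternatives), with a median of -0.05, and these counts lie near the 8.59% and 7.41% of all tested genes.

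Ephx1 and Pacsin1 fell further in T1792tg cells. In naive cells Ephx1 stood at 149, 114, 109 and 117 CPM in the wild-type and at 168, 166, 139.7 and 166 CPM in the T1792tg libraries. At 24 h it stood at 23.6, 20.1, 22.2 and 28.3 CPM in wild-type and 10.5, 9.95, 11.4 and 11.1 CPM in T1792tg libraries. Ephx1, microsomal epoxide hydrolase, had the smallest interaction p together with Myo10, and at 24 h every T1792tg library lay below every wild-type one (-1.52 ± 0.15, adjusted p = 8.1e-08). Pacsin1, an endocytic adaptor, fell from 85.4 ± 6.48 to 32.4 ± 2.89 CPM and from 80.3 ± 12.1 to 15.6 ± 0.427 CPM (-0.96 ± 0.11, adjusted p = 1e-06).

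In 75 genes both responses were called and went in opposite directions, 41 rising in wild-type and falling in T1792tg cells and 34 the other way. Myo10, above, was one of the 34. Prr13 was 42.4, 38.9, 37.1 and 34.9 CPM in the naive wild-type and 64.6, 65.9, 66.8 and 67.5 CPM in the naive T1792tg libraries. After stimulation it was 45.5, 47.4, 42.8 and 51.8 CPM in the wild-type and 45.7, 34.9, 34.7 and 38.1 CPM in the T1792tg libraries. Prr13, a proline-rich protein, was higher in all naive T1792tg libraries, and the groups overlapped at 24 h (-1.08 ± 0.13, adjusted p = 1.6e-06). Ptms, parathymosin, rose from 31.2 ± 2.87 to 58.3 ± 2.39 CPM in wild-type and fell from 57.8 ± 4.29 to 47.3 ± 8.83 CPM in T1792tg cells (-1.19 ± 0.15, adjusted p = 2.7e-06). Cd160, a receptor of the immunoglobulin family, rose from 5.52 ± 1.01 to 8.68 ± 1.22 CPM and fell from 16 ± 3.04 to 7.24 ± 0.637 CPM (-1.79 ± 0.31, adjusted p = 0.00017). Rgl1, a Ral exchange factor, rose from 3.76 ± 0.822 to 6.7 ± 0.449 CPM and fell from 4.84 ± 0.694 to 2.49 ± 0.435 CPM (-1.78 ± 0.29, adjusted p = 7.5e-05). Many of these changes are small within each genotype, so opposite direction does not mean a large effect.

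Transcription factors of activation had 9 of 21 members called above 0 and 2 below (Batf and Bhlhe40), and 15 of the 21 lay above 0, with a median of 0.39. The count called below 0 was 0 without T1792tg naive 3, and it was 1 with terms for sex and without T1792tg naive 2, T1792tg 24 h 1, 2 or 3, wild-type naive 1, 3 or 4, or wild-type 24 h 2 or 3. In naive cells 12 of them were called lower and 4 higher in T1792tg libraries, against 12.6% and 10.5% of all tested genes. At 24 h 2 were called lower and 5 higher, against 6.45% and 6.1% of all tested genes. Myc, which drives growth after activation, rose from 148 ± 12.1 to 496 ± 9.59 CPM and from 107 ± 8.64 to 565 ± 30.3 CPM (0.65 ± 0.13, adjusted p = 0.00057). Jun, an AP-1 subunit, fell from 922 ± 176 to 19.2 ± 3.54 CPM and from 818 ± 93.6 to 41.2 ± 3.49 CPM (1.27 ± 0.19, adjusted p = 4e-05). Jun is also among the stress and dissociation markers, whose 13 members summed to 5360 to 14100 CPM in naive wild-type and 7260 to 12300 CPM in naive T1792tg libraries and to 1010 to 1070 and 1050 to 1140 CPM at 24 h, with 2 members called above 0 and 2 below. Their part in the Jun result was not tested. Prdm1, the repressor Blimp-1, fell from 11.4 ± 1.14 to 0.529 ± 0.215 CPM and from 6.1 ± 0.944 to 1.08 ± 0.252 CPM (1.92 ± 0.33, adjusted p = 0.00016). Batf3, a partner of Jun proteins, rose from 0.701 ± 0.181 to 2.14 ± 1.11 CPM and from 0.744 ± 0.246 to 7.95 ± 4.39 CPM (1.81 ± 0.57, adjusted p = 0.028). The Batf3 call was lost without T1792tg 24 h replicate 2 (1.35), T1792tg naive replicate 4 (1.67), wild-type naive replicate 2 (1.69) or wild-type naive replicate 3 (1.72).

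Signalling genes with small but called interactions mostly lay above 0. Calcineurin and NFAT genes, the calcium branch downstream of the T cell receptor, had 6 of 16 tested members called above 0 and none called below, and 11 of the 16 lay above 0, with a median of 0.27. Nfatc2, an NFAT factor, fell from 134 ± 9.04 to 56.6 ± 5.06 CPM and from 97.9 ± 13.6 to 65.4 ± 5.5 CPM (0.66 ± 0.13, adjusted p = 0.00055), and Cabin1, a calcineurin inhibitor, had 0.56 ± 0.12, adjusted p = 0.0022. NF-kB genes had 7 of 19 called above 0 and 1 below (Nfkbia, the feedback inhibitor), with a median of 0.26, and 4 called above 0 without T1792tg 24 h replicate 4. With terms for sex no NF-kB gene was called below 0. Nfkb1, the p105 precursor, had similar naive levels and rose from 360.0 ± 9.69 to 819 ± 20.7 CPM and from 361 ± 19.4 to 1195 ± 136 CPM (0.54 ± 0.09, adjusted p = 0.00011), while the inhibitors Traf3 and Tnip1, at 0.44 ± 0.10 and 0.36 ± 0.10, fell less. Brakes on PI3K and receptor-proximal signals had 7 of 20 called above 0 and 1 below, and 15 of the 20 lay above 0, with a median of 0.18. The member called below 0 was Dgka, a diacylglycerol kinase, which fell further in T1792tg cells (-0.39 ± 0.10, adjusted p = 0.0087). The count of brakes called above 0 was 2 to 4 when 1 of 9 libraries was left out, namely T1792tg naive 2 or 3, wild-type naive 1, 3 or 4, T1792tg 24 h 3 or 4, or wild-type 24 h 1 or 4, and 2 with terms for sex. That count was 4 with either replicate block, and with the block within genotype 2 brakes were called below 0.

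**Figure D3:**
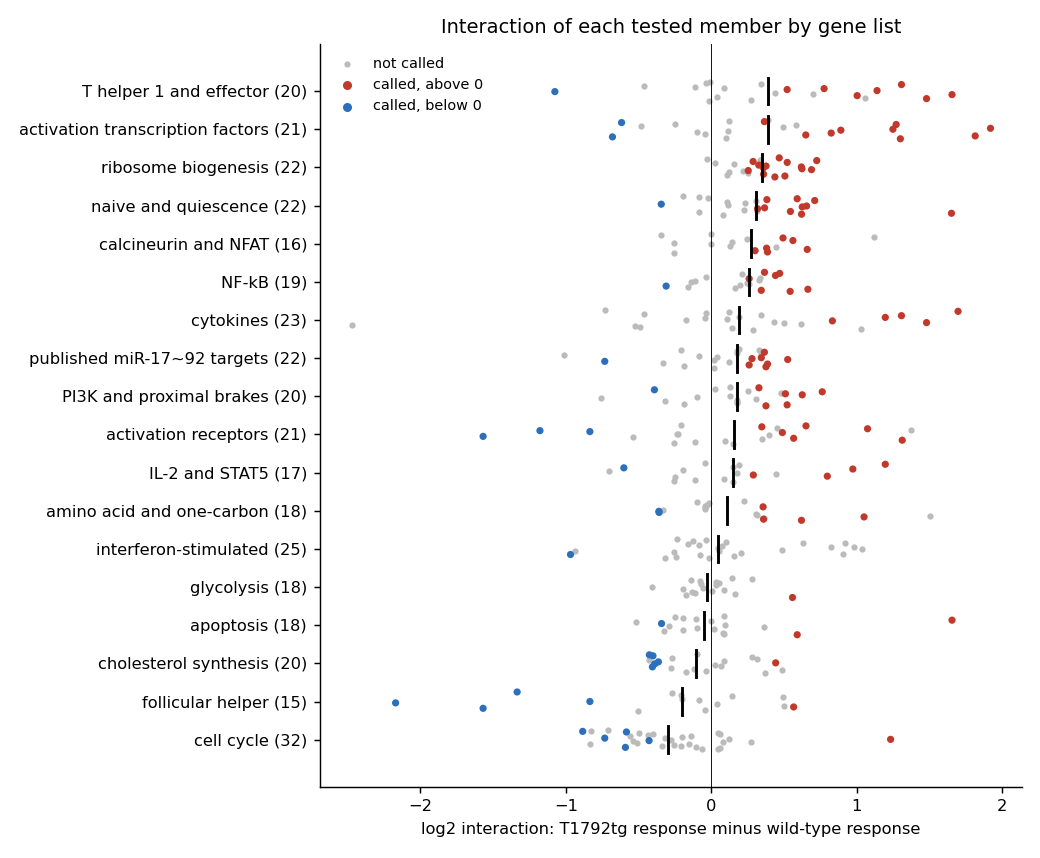
Log2 interaction of each tested member of 18 gene lists, with the number of tested members in brackets and a black bar at the list median. Red points are called above 0, blue points called below 0 and grey points not called; ribosome biogenesis has 15 of 22 members called above 0 and none below, and cell cycle 1 above and 5 below of 32.

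Growth genes did not move as a block. Ribosome biogenesis genes, which supply the factors that build ribosomes, had 15 of 22 members called above 0 and none called below, and 21 of the 22 lay above 0, with a median of 0.35. They rose on stimulation in both genotypes, and 13 of the 22 were called lower in naive T1792tg cells and none higher, while 1 was called higher at 24 h. Over all tested genes 12.6% were called lower and 10.5% higher in naive cells, and 6.1% higher at 24 h. Nop58, a core protein of small nucleolar ribonucleoproteins, rose from 180.1 ± 12.1 to 735 ± 21.7 CPM and from 132 ± 8.64 to 767 ± 23.8 CPM (0.51 ± 0.09, adjusted p = 0.00018). Polr1b, a subunit of RNA polymerase I, rose from 43.3 ± 3.61 to 244 ± 2.96 CPM and from 30.1 ± 2.85 to 261 ± 14.8 CPM (0.62 ± 0.11, adjusted p = 0.00028), and the catalytic subunit Polr1a had 0.69 ± 0.13, adjusted p = 0.00034. In the amino acid and one-carbon list 4 of 18 were called above 0 and 2 below, and 9 of the 18 lay above 0, with a median of 0.11. The count called below 0 was 1 without T1792tg naive 4, T1792tg 24 h 3, wild-type naive 2 or 3, or wild-type 24 h 1, and 0 with terms for sex. Slc7a1, a transporter of cationic amino acids, rose from 125 ± 8.85 to 239 ± 24.4 CPM and from 79 ± 15.2 to 313 ± 40.4 CPM (1.05 ± 0.16, adjusted p = 3.9e-05). The leucine transporter chain Slc7a5 had 0.62 ± 0.17, adjusted p = 0.01, and the folate enzyme Mthfd1 0.36 ± 0.08, adjusted p = 0.0031.

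Cell cycle genes lay the other way, with 24 of 32 below 0, of which 5 were called, and 1 called above, and a median of -0.30. Mcm5, a replication helicase subunit, rose from 52.3 ± 4.01 to 744 ± 46.2 CPM and from 79.3 ± 8.26 to 749 ± 41.7 CPM (-0.59 ± 0.12, adjusted p = 0.001), so the genotypes differed in naive cells and met at 24 h. The exception was Cdk6, a G1 kinase, which rose from 8.28 ± 0.971 to 20.1 ± 3.11 CPM and from 6.41 ± 0.867 to 36.6 ± 8.63 CPM (1.23 ± 0.25, adjusted p = 0.00089). The count called below 0 was 3 with terms for sex, and 2 or 3 when T1792tg naive 3 or 4, wild-type naive 4, T1792tg 24 h 3 or 4, or wild-type 24 h 1 or 2 was left out. Glycolysis genes had 1 of 18 called, the glucose transporter Slc2a1 at 0.55 ± 0.19, adjusted p = 0.043, and its call was lost in 11 of 24 alternatives. Cholesterol synthesis genes had 1 of 20 called above 0 and 5 below, with a median of -0.11, among them Ebp and Fdft1 at -0.43 ± 0.12 and -0.41 ± 0.12. The 1 called above was 0 without T1792tg naive 2 or 4, T1792tg 24 h 4 or wild-type 24 h 1, 2 or 4, and 2 without T1792tg naive 1 or 3 or T1792tg 24 h 2. The count of 5 was 3 without T1792tg naive 3 or T1792tg 24 h 3 and 2 without wild-type 24 h 1, and the Fdft1 call was lost without T1792tg naive 3 (-0.32) or wild-type 24 h 1 (-0.33). With terms for sex 2 were called below 0, and the calls of Ebp (-0.38) and Fdft1 (-0.295) were lost. Of 25 interferon-stimulated genes only Isg20, an exonuclease, was called (-0.97 ± 0.21, adjusted p = 0.0014), although 12 of the 25 were called higher in naive T1792tg cells, against 10.5% of all tested genes. Regulatory T cell markers had 3 of 11 called below 0 (Foxp3, Gpr83 and Izumo1r) and none called above. In naive cells 5 of the 11 were called higher in T1792tg libraries and none lower, and the naive sums given above did not overlap. General T cell markers had 4 of 10 called below 0 and none called above.

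Published targets of the cluster had 7 of 22 members called above 0 and 1 below, and 16 of the 22 lay above 0, with a median of 0.18. In naive cells 6 were called lower and 2 higher in T1792tg libraries, against 12.6% and 10.5% of all tested genes. At 24 h 2 were called lower and 1 higher, against 6.45% and 6.1%. The 24 h counts and the naive count of 2 lie near these shares. Wild-type libraries held Tgfbr2 at 752, 676, 681 and 734 CPM naive and at 50.5, 52.8, 54.8 and 58.5 CPM after 24 h. T1792tg libraries held it at 553, 557, 451 and 526 CPM naive and at 51.3, 48.2, 62.6 and 66.4 CPM after 24 h. Tgfbr2, a TGF-beta receptor chain, was lower in all naive T1792tg libraries and overlapped at 24 h (0.52 ± 0.11, adjusted p = 0.0014). Smad2, which carries the TGF-beta signal, had 0.28 ± 0.08, adjusted p = 0.011. The member called below 0 was E2f2, a cell cycle transcription factor, at -0.73 ± 0.19, adjusted p = 0.0064. With terms for sex 4 targets were called above 0.

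Seed matches were then counted in 3' untranslated regions, 1 per gene and the longest in the annotation, for 12654 of the 13650 tested genes (GENCODE transcripts, GRCm38). The 7-base matches, read on the transcript strand only, were GCACTTT for miR-17-5p and miR-20a-5p, GCACCTT for miR-18a-5p, TTTGCAC for miR-19a-3p and miR-19b-3p, and GTGCAAT for miR-92a-3p. Matches of the miR-17 and miR-19 families can share letters. At least 1 match was present in 4134 genes and none in 8520. The sites below are 8-base matches (the 7 bases and an A after them) in genes named above, with flanking bases in lower case and the match in capitals, to show what was counted. Smad2, also named above, holds an 8-base match of miR-18a-5p that is not reported here.
Il7r, miR-19a-3p family, chr15:9507679-9507702, minus strand: cagaagcaTTTGCACAaagcagga
Nfatc2, miR-19a-3p family, chr2:168478634-168478657, minus strand: agccacgtTTTGCACAtgagggag
Tgfbr2, miR-17-5p family, chr9:116090065-116090088, minus strand: taacgtttGCACTTTAttaatgcc
Il12rb2, miR-19a-3p family, chr6:67291462-67291485, minus strand: gctatcagTTTGCACAtaagcatt
Batf3, miR-19a-3p family, chr1:191108667-191108690, plus strand: aaccttggTTTGCACActcaggag
Rgl1, miR-19a-3p family, chr1:152518626-152518649, minus strand: aaaaccaaTTTGCACAatggcctg
Lif, miR-17-5p family, chr11:4271477-4271500, plus strand: ctctctaaGCACTTTAcctggacg
Traf3, miR-19a-3p family, chr12:111266102-111266125, plus strand: atcttctaTTTGCACAcccatagc
Tnip1, miR-19a-3p family, chr11:54910811-54910834, minus strand: ggcagccgTTTGCACAaatcttgg
Of these 9 genes, 8 had an interaction above 0 and Rgl1 had one below 0. They had been named for their interactions, so this count is a description only.

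The naive difference of genes with a match had a lower median than that of genes without, and at 24 h the medians were close. In naive cells the median log2 difference between T1792tg and wild-type was -0.06 for the 4134 genes with a match, 7.38% being called higher and 19.6% lower, and 0.04 for the 8520 genes without (12.4% and 9.91%). At 24 h the medians were 0.01 (7.45% higher, 7.31% lower) and -0.02 (5.75% and 6.42%). The interaction had medians of 0.08 with a match (12.5% above 0, 4.6% below) and -0.06 without (7.36% and 9.19%), against -0.02 over all genes with a 3' untranslated region (9.03% and 7.69%). By family the median interaction was 0.09 for miR-17-5p and miR-20a-5p, 0.07 for miR-18a-5p, 0.10 for miR-19a-3p and miR-19b-3p and 0.13 for miR-92a-3p, over 1787, 1160, 1610 and 930 genes. The 221 genes with matches of 3 or 4 families had -0.16 in naive cells, 0.01 at 24 h and an interaction of 0.17. Regions with a match were longer, with a median of 2228 bases against 774. Among regions of 1000 to 2000 bases the median interaction was 0.06 with and -0.02 without a match. In this band the naive medians were -0.064 with and 0.020 without a match. Its 24 h medians were -0.016 with a match (6.09% higher, 8.65% lower) and 0.001 without (7.29% and 5.94%). That 24 h order is opposite to the order over all lengths, so matched genes of this length stayed slightly lower. For 8-base matches in this band the 24 h medians were -0.042 with a match (4.53% higher, 10% lower) and 0.000 without (7.22% and 6.43%). Over all lengths those of 8-base matches were -0.004 with (6.86% higher, 8.31% lower) and -0.012 without (6.22% and 6.47%). These medians describe genes that share libraries, and no test was made of them. The cumulative plot of the same values shows the curves apart in naive cells and close together at 24 h.

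**Figure D4:**
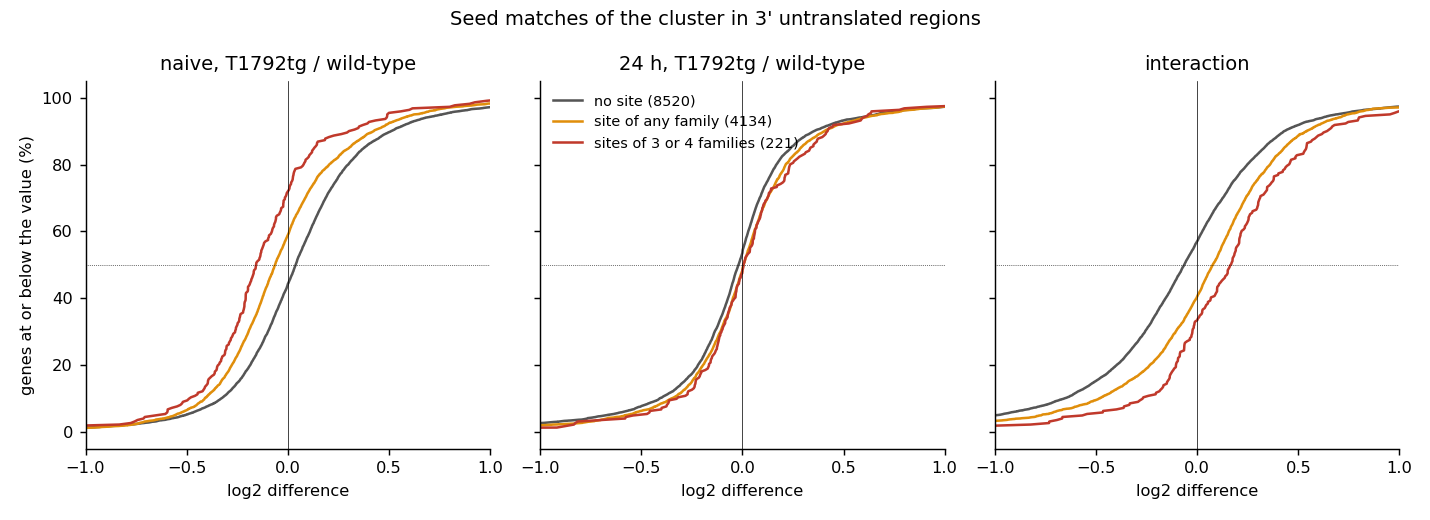
Cumulative share of genes (%) against the log2 difference between T1792tg and wild-type cells in naive libraries (left), in 24 h libraries (middle) and for the interaction (right). Lines are genes without a seed match (grey, 8520), with a match of any family (orange, 4134) and with matches of 3 or 4 families (red, 221); the naive medians are 0.04, -0.06 and -0.16.

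The same transgene term could be formed in libraries that share none with the groups above. Mice labelled CD28-/- that carried Cd4-driven Cre and the transgene (rescue, 3 naive and 3 stimulated libraries) were set against mice labelled CD28-/- alone (CD28ko-labelled, 4 and 4), all female, with the same culture. Counts of the targeted gene, Cd28, before stimulation averaged 737 ± 135 CPM with this label, against 825 ± 86.8 CPM in wild-type cells, which does not show a loss of the gene, and it is not known here which part of Cd28 the allele removes. In this pair the interaction was called for 1747 genes (12.8%), 950 above 0 (6.96%) and 797 below (5.84%), and this count was 1000 without rescue 24 h replicate 2 and 1144 without rescue 24 h replicate 3. Both interactions called 650 genes, which is 29.7% of the T1792tg list and 37.2% of the rescue list, and 638 of them had the same sign (360 above 0 and 278 below). Of the 2185 genes called in T1792tg cells, 1842 (84.3%) had the same sign in rescue cells, against 64.4% of all tested genes. Across genes the 2 interactions had a Pearson r of 0.239 and a Spearman rho of 0.345, and a Pearson r of 0.417 over the 10250 genes whose highest group mean reached 5 CPM. The genes called above 0 in T1792tg cells had medians of 0.47 there and 0.26 in rescue cells, and those called below 0 had -0.55 and -0.27.

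Genes that stood higher in T1792tg cells at 24 h were among those called in both. Cd44, Ddr1, Ephx1, Pacsin1 and Prr13 had been picked as called in both interactions with the same sign, so their recurrence was fixed by that choice. How many of the other named genes were called in rescue cells was not counted. Cd44 rose from 37.5 to 48 ± 5.29 CPM in CD28ko-labelled and from 36.3 to 129 ± 38.7 CPM in rescue cells, an interaction of 1.48 ± 0.19, adjusted p = 6e-06. Plaur had 2.08 ± 0.31, adjusted p = 3.2e-05, Gprin3 1.88 ± 0.39, adjusted p = 0.0015, Lta 1.19 ± 0.20, adjusted p = 0.00011, Ccl3 2.23 ± 0.44, adjusted p = 0.00083 and Il12rb2 2.56 ± 0.35, adjusted p = 1.2e-05. On the other side Ephx1 had -1.42 ± 0.15, adjusted p = 8.7e-07, Pacsin1 -0.84 ± 0.11, adjusted p = 1.1e-05, Prr13 -1.002 ± 0.14, adjusted p = 1.1e-05 and Ier5l -2.88 ± 0.44, adjusted p = 4e-05. Ddr1 had 1.36 ± 0.17, adjusted p = 5.4e-06 and Mir17 -2.56 ± 0.63, adjusted p = 0.0068. Ribosome biogenesis genes had 16 of 22 called above 0 and none called below in rescue cells, with a median of 0.45. Some lists did not recur. Calcineurin and NFAT genes had 0 of 16 called above 0 and 0 below. PI3K and proximal brakes had 0 of 20 and 3. Activation receptors had 2 of 21 and 0, so Pdcd1, Cd200 and Lag3 were not called below 0 there. T helper 1 and effector genes had 9 of 20 and 1, cytokines 6 of 23 and 1 and follicular helper genes 2 of 15 and 6. Over all tested genes 6.96% were called above and 5.84% below 0.

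Some genes differed between the backgrounds. A test of the difference between the 2 interactions called 113 genes (0.828%), 62 higher in rescue (0.454%) and 51 lower (0.374%), and 2055 genes had an unadjusted p below 0.05. This count was the least stable one: it ran from 35 to 471 over single libraries left out, and the closing part gives the values. Il7r differed by -1.83 ± 0.37, adjusted p = 0.0097 between the backgrounds, with -0.18 ± 0.26 in rescue cells. Irf4 differed by -1.36 ± 0.32, adjusted p = 0.033, with -0.06 ± 0.24 in rescue cells. Isg20 differed by 1.54 ± 0.30, adjusted p = 0.0082, Klf3 by -0.99 ± 0.19, adjusted p = 0.0074, Tgfbr2 by -0.77 ± 0.16, adjusted p = 0.015, Tnip1 by -0.76 ± 0.15, adjusted p = 0.0082 and Fdft1 by 0.76 ± 0.18, adjusted p = 0.029. In rescue cells the naive and quiescence list had 0 of 22 called above 0 and 3 called below (median -0.17), the NF-kB list 0 of 19 and 4 (median -0.08) and the cell cycle list 7 of 32 and 0 (median 0.47), and the differences between the lists were not tested as such. Sex, CD28 genotype and the number of libraries differ between the 2 pairs and cannot be told apart.

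**Figure D5:**
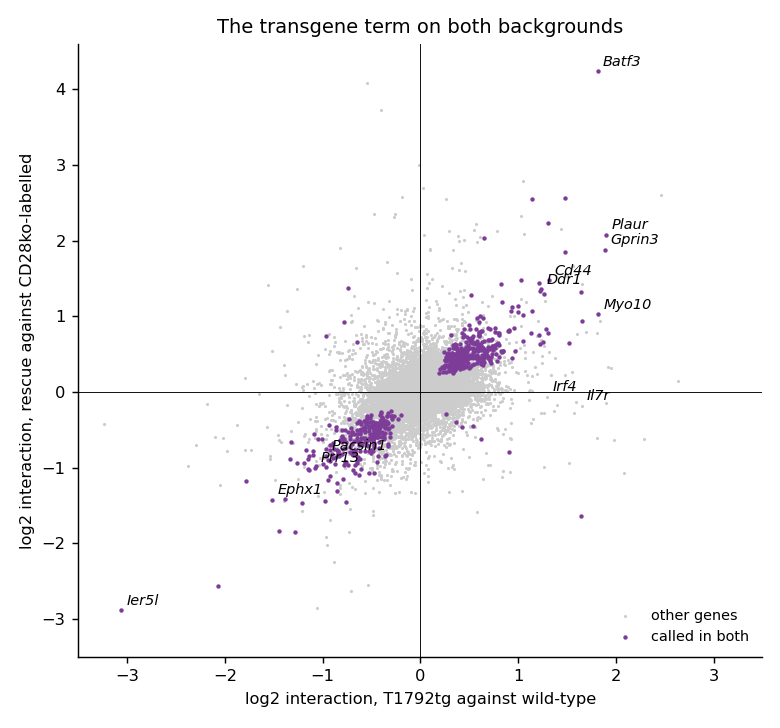
Log2 interaction of T1792tg against wild-type (x axis) and of rescue against CD28ko-labelled (y axis) for the 10250 genes whose highest mean over the T1792tg and wild-type groups reached 5 CPM. Purple points are called in both; over all tested genes these number 650, 638 of them with the same sign, and genes beyond the y axis are not drawn.

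Loss of the cluster in T cells (T1792del) gave an interaction of its own against wild-type, which called 833 genes (6.1%), 430 above 0 (3.15%) and 403 below (2.95%). It uses the same wild-type libraries as the T1792tg interaction, so the values are only set side by side. Of the genes named above and called in both, 10 had opposite signs, the first value being that of T1792tg and the second that of T1792del. Plaur had 1.90 ± 0.25 and -1.19 ± 0.27, Batf3 1.81 ± 0.57 and -2.32 ± 0.63, Il12rb2 1.14 ± 0.32 and -1.52 ± 0.34, Ccl3 1.31 ± 0.39 and -1.43 ± 0.38, and Lta 0.83 ± 0.18 and -0.94 ± 0.18. Ddr1 had 1.24 ± 0.16 and -1.004 ± 0.16, Il7r 1.65 ± 0.26 and -1.05 ± 0.27, Pim1 0.97 ± 0.14 and -1.12 ± 0.14, and Bcl2 0.59 ± 0.12 and -0.80 ± 0.11. Ephx1 lay below 0 in T1792tg and above 0 in T1792del cells, at -1.52 ± 0.15 and 0.64 ± 0.14. The same sign was found for Tnfsf4, -2.38 ± 0.38 and -2.14 ± 0.38, Pim2, -0.60 ± 0.11 and -0.60 ± 0.11, Nfkb1, 0.54 ± 0.09 and 0.39 ± 0.09, and Tgfbr2, 0.52 ± 0.11 and 0.38 ± 0.11. These genes were singled out after their values were seen. The share of opposite signs over all genes called in both was not counted, so the 10 are a description only.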

How the data were processed

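The deposited table holds read counts per gene, not normalized, for 38 libraries and 24028 Entrez Gene identifiers. Per the labels' protocols, libraries were made with a stranded TruSeq kit and read as single ends of 76 nt. The submitters' processing notes name STAR 2.5.2a and the build mm10, beside FastQC 0.11.5, edgeR 3.24.3 and R 3.5. How reads were assigned to genes is not given in the sources used here. Symbols came from RefSeq (GRCm38.p6), which matched 23968 identifiers, and the rest took 0.0749% of counts.

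Genes were filtered with filterByExpr over the 10 groups (13650 kept), scaled by TMM and fitted with edgeR 4.0.16 (R 4.3.3) in a quasi-likelihood model with 1 coefficient per group over all libraries. Contrasts were tested two-sided with the F test and adjusted by Benjamini-Hochberg over all tested genes; a call is an adjusted p below 0.05, and the SE is the log2 change divided by the square root of F. The script was checked on simulated data. The labels do not link a naive to a stimulated library, and p values measure the spread between single mice.

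Named genes were the cluster's transcripts, Il2 and Il2ra, the 12 largest interactions in each direction with at least 5 CPM, up to 4 members per list by p, the 8 smallest p and 5 genes called in both interactions; the text prints some of these, a few are not reported here, and further list members are named without values. Members and lists were chosen with earlier results of these data known. Alternatives were RLE size factors, DESeq2 1.42.0, other filters, fewer groups, a replicate block, terms for sex, a threshold of 0.01 and each library left out; the length band for seed matches was added after seeing the data.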

Additional observations from a re-analysis of the deposited data

Results flagged for a closer look

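Within single groups of 4 libraries, 16 of 280 groups (5.71%) held a library far from the other 3, and chance alone gives about 1 in 20. In naive wild-type cells these were Mir20a in replicate 3 (0.377 CPM), E2f2 in replicate 4 (23.6 CPM), and Dgka (1917 CPM) and Pim1 (459 CPM) in replicate 2. Wild-type cells at 24 h had Angptl2 (12.4 CPM), E2f2 (56.6 CPM) and Tnip1 (71.2 CPM) in replicate 4 and Jun in replicate 2 (24.5 CPM). In naive T1792tg cells Myo10 (11.4 CPM), Ephx1 (139.7 CPM) and Klf3 (58.6 CPM) stood apart in replicate 3 and Il12rb1 in replicate 4 (12.7 CPM). T1792tg cells at 24 h had Gt(ROSA)26Sor (0.0387 CPM), Batf3 (14.5 CPM) and Ier5l (2.29 CPM) in replicate 2 and Il12rb1 in replicate 1 (215 CPM).

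The responses of the 2 genotypes differed by the interaction test in 2185 genes, and the transgene term differed between the wild-type and CD28ko-labelled backgrounds in 113 genes. Among the genes named above, the rescue interaction minus the T1792tg interaction was 1.54 for Isg20, 0.76 for Fdft1, -0.77 for Tgfbr2, -0.76 for Tnip1, -0.99 for Klf3, -1.36 for Irf4 and -1.83 for Il7r.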

How the results depend on the processing

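The interaction count stayed within 1.5 times of 2185 with RLE size factors (2199), no filter on low counts (1870), a mean of at least 5 CPM (2263), only the compared groups (2184), terms for sex (1474) and DESeq2 (2536). At an adjusted p below 0.01 the counts were 954 for the interaction, 1764 and 776 for the naive and 24 h differences, 747 for the rescue interaction and 27 for the difference of the interactions. With only the compared groups the naive and 24 h differences called 1913 and 2631 genes. The difference of the interactions called 185 genes at 5 CPM, 42 with terms for sex and 369 with DESeq2. Leaving out 1 library gave 1530 to 2330 genes for the interaction, 11407 to 11462 and 11370 to 11507 for the wild-type and T1792tg responses, 2415 to 3033 for the naive and 962 to 1710 for the 24 h difference, 1000 to 2152 for the rescue interaction and 35 to 471 for the difference of the interactions, the last without rescue 24 h replicate 2 and without rescue naive replicate 2. For the 70 named genes, 1622 of 1669 values kept direction and call, 43 kept direction and lost the call, and 4 turned. The threshold of 0.01 is not in this tally, nor in the counts of alternatives given above for Tox2, Bid and Slc2a1. At that threshold the calls of Mir17, Batf3, Smad2, Ccl3, Tnip1, Il12rb2, Tox2, Slc2a1, Slc7a5, Ebp, Fdft1 and Bid were lost. Most of the 70 were named for small p or large interactions in these data, so a high share kept is partly built in. With 1 library left out the interaction of Mir18 ran from -1.128 to 0.576, the last without wild-type 24 h replicate 1. That of Il2 ran from -0.1098 without wild-type naive replicate 3 to 0.5312, was -0.03305 without T1792tg naive replicate 4, and was -0.0263 with terms for sex. The median of genes with no called T1792del response turned to 0.00272 when a response of at least 1 (log2) was required. The titles number the libraries, but the labels do not say what a number shares. Same-numbered naive and 24 h deviations had r from -0.138 to 0.245, 5 of 8 over 0.1. Of these 8 naive libraries, 5 correlated best with the 24 h library of their own number. Sex agreed within every number, replicate 4 being the only male in wild-type and replicate 2 the only female in T1792tg in both states. The main fit did not take the numbers as pairs, and whether they share a mouse is not known. With the replicate block over all groups 2122 interactions were called, and 1983 with the block within genotype, which was not run for the naive and 24 h differences. At the depth of these libraries, transcripts under about 1 CPM, such as Il2 in naive cells and Mir17 in wild-type cells, rest on few counts.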
